A study of Mus musculus with 64 samples.

Results

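The nuclear subunit genes of respiratory complexes II, III, IV and V were followed in mouse liver, heart, white fat and lung. They were taken by symbol: Sdha to Sdhd for complex II, the Uqcr genes and Cyc1 for complex III, the Cox4 to Cox8 genes for complex IV and the Atp5 genes for complex V, with pseudogene symbols ending in -ps left out and the rows of a symbol summed. This gave 48 members among 25107 symbols, with 4 in complex II, 9 in complex III, 18 in complex IV and 17 in complex V. The tables held 47 of them in liver, 48 in heart, 46 in white fat and 46 in lung. The symbol pattern also takes in Cox7a2l, which encodes an assembly factor that joins complexes III and IV, and Cox6c2, which GENCODE annotates as a processed pseudogene.

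All mice had the genotype Cre+:iMSBmal1 fl/fl, in which Bmal1, the core activator of the circadian clock, can be removed from skeletal muscle. They were given either vehicle or the treatment labelled iMSBmal1KO, and were either left sedentary or trained daily on a treadmill for 6 weeks, with tissue taken 48 hours after the last bout. Liver and heart had 5 libraries in each of the 4 groups and white fat and lung had 3, for 64 libraries in all. The knockout and the treatment that induced it came together in the same mice, so they cannot be told apart, and muscle, where Bmal1 was targeted, was not analysed here. Libraries of a group are separate samples by their labels only, and the p-values below cover no more than the spread among such samples.

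Complex II oxidises succinate to fumarate and passes the electrons to ubiquinone. Complex III takes them from ubiquinol to cytochrome c, and complex IV, cytochrome c oxidase, passes them to oxygen. Complexes III and IV pump protons across the inner membrane, and complex V, the ATP synthase, uses the gradient to make ATP. The catalytic core of complex IV and part of the membrane sectors of complexes III and V are encoded by mitochondrial DNA, so the genes described here supply all of complex II but only the nuclear part of the others. Several complex IV subunits exist as a general form and a form known from heart and skeletal muscle, and transcript length differs widely between members, from 320 to 2859 nt among those tested.

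The measure was RNA abundance in bulk tissue, so that fewer cells of a type and less RNA per cell cannot be told apart. Levels are given in CPM, and per kb of transcript where genes are compared with each other. In liver and heart, CPM are the deposited values rescaled by 1 factor per tissue, so that the mean library, not each library, sums to 1000000. In white fat and lung, CPM are counts per 1000000 of a library size scaled by edgeR's TMM factors. Depth, in units of 1000000 reads per library, was 12.4 to 20.7 in liver, 14.1 to 21 in heart, 19 to 31.2 in white fat and 18.7 to 35.7 in lung. Each tissue carried its own markers: the 7 hepatocyte markers summed to at least 73450 CPM in every liver library, the 7 cardiomyocyte markers to at least 36760 CPM in heart, the 5 white adipocyte markers to at least 10920 CPM in fat and the 4 alveolar markers to at least 15860 CPM in lung. A few libraries stood apart by markers of another tissue. They were replicate 2 of the trained knockout livers with 153 CPM of skeletal muscle markers, replicate 5 of the trained vehicle hearts with 104 CPM of hepatocyte markers, and 3 fat libraries with 182 to 2425 CPM of hepatocyte markers. In heart, replicate 3 of the sedentary vehicle group, replicate 1 of the trained vehicle group and replicate 5 of the trained knockout group held 31.2 to 48.8 CPM of Ucp1, the uncoupling protein of brown fat, against a median of 1.06 CPM. The last of these also held 27.2 CPM of airway markers, which were at 0 in every other heart. Apart from the hearts named for Ucp1, the gene stood at 0 to 0.582 CPM in sedentary and 0 to 0.389 CPM in trained vehicle hearts. In knockout hearts it ran from 0 to 13.2 CPM in the sedentary and from 0.0474 to 11.4 CPM in the trained group.

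Promoter sequences of 4 complex IV isoforms, 1 complex V gene and 1 complex III gene are shown first, because the levels below turn on the isoform pairs and on these small subunits. They are the 200 bases before the annotated start, from RefSeq on GRCm38.p6, and a window was found for 36 of the 48 members. For the muscle isoform Cox7a1 (chr7:30183971-30184170, plus strand) and its general partner Cox7a2 (chr9:79759854-79760053, minus strand), and for the muscle isoform Cox8b (chr7:140900447-140900646, minus strand) and its partner Cox8a (chr19:7217617-7217816, minus strand), capitals mark each CG dinucleotide.
Cox7a1: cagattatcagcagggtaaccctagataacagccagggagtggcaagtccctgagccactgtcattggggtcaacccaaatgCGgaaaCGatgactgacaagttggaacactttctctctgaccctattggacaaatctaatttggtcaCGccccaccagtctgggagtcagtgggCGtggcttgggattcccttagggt
Cox7a2: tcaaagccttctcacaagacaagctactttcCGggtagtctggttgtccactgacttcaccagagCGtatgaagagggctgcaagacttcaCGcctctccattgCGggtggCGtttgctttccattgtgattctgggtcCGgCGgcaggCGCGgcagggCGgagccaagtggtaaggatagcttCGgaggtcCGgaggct
Cox8b: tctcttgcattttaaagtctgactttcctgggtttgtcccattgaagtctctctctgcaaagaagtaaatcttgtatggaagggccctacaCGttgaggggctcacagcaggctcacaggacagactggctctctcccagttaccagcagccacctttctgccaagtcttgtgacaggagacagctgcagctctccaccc
Cox8a: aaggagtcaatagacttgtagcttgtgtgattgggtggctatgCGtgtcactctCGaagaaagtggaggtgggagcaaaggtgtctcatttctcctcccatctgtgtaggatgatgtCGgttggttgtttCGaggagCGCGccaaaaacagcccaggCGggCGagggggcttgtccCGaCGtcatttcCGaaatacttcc
The windows held 4 CG dinucleotides in Cox7a1 and 12 in Cox7a2, and 1 in Cox8b and 11 in Cox8a. Among 27025 symbols with a window, 59.0% had as many as Cox7a1 or more, 31.8% as many as Cox7a2, 89.7% as many as Cox8b and 34.1% as many as Cox8a. The median window held 5.0 CG dinucleotides over all symbols and 11.5 over the 36 members. In both pairs shown the muscle form thus had the CG-poorer window. The pair of Cox6a2 and Cox6a1 was not compared in this way.

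The other sequences are those of Atp5k (chr5:108434400-108434599, minus strand), which encodes subunit e of ATP synthase, and Uqcr11 (chr10:80406822-80407021, minus strand), which encodes a small subunit of complex III. Capitals mark a match to the NRF1 pattern, GCGC and GCGC with any 2 bases (NN) between them, in Atp5k and to CCGGAAG, a letter pattern of ETS factors such as GABPA, in Uqcr11.
Atp5k: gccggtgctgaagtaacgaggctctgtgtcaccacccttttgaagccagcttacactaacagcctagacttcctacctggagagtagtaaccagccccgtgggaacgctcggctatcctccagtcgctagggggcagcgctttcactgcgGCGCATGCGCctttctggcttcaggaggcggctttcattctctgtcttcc
Uqcr11: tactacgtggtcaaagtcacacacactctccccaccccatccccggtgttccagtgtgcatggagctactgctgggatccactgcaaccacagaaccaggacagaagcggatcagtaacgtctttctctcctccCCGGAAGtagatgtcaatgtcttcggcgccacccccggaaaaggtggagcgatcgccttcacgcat
The match began 50 bases before the start in Atp5k and 66 bases before it in Uqcr11. On both strands, the NRF1 pattern was found in 7 of the 36 member windows, or 19.4%, and in 5.25% of all windows. CCGGAAG was found in 8 member windows, or 22.2%, against 7.15% of all windows. The YY1 pattern AAGATGGC was in 1 member window (2.78%, against 1.4% of all), the estrogen-related receptor pattern AAGGTCA in 2 (5.56%, against 3.69%) and the E-box CACGTG, which the clock factor BMAL1 can bind, in 2 (5.56%, against 6.0%). Among the 19 members with a window that were called in heart after training in vehicle mice, 2 held the NRF1 pattern and 5 CCGGAAG. Of the same 19, 0 held the YY1 pattern, 1 AAGGTCA and 1 the E-box. Each pattern was searched on its own, and matches of different patterns may overlap. These matches describe letters in a window and are not evidence of binding. The NRF1 pattern, CCGGAAG and CACGTG each contain CG. Member windows held more CG dinucleotides than those of all symbols, with medians of 11.5 and 5.0. The part of CG content in the shares of windows with a match was not tested.

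The members took their largest share of RNA in heart. They made up a median of 2.506% of a heart library (2.225 to 2.696% over 20 libraries), 0.8531% in liver (0.7693 to 0.956%), 0.7139% in white fat (0.6046 to 0.8192% over 12 libraries) and 0.4104% in lung (0.3524 to 0.5999%). The tables were normalised separately for each tissue and the 2 pairs of tissues were deposited in different units, so these levels are set side by side without a test. The ranges of heart did not overlap those of any other tissue, while liver overlapped white fat. Within the members, complex V genes held the largest part in every tissue, a median of 51.38% in heart, 45.99% in liver, 48.72% in white fat and 47.41% in lung. Complex IV came next with 21.12% in heart, 21.11% in liver, 23.54% in white fat and 26.52% in lung. Complex III held 17.54, 20.21, 14.96 and 14.59% in the same order of tissues and complex II 10.04, 12.36, 13.07 and 11.31%.

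Per kb of transcript, the median member stood at 416 CPM in heart, 164 in liver, 125 in white fat and 68.6 in lung. Complex II varied least between its subunits: in heart, Sdhb, the iron-sulfur subunit, stood at 515 CPM per kb, Sdha, the flavoprotein that oxidises succinate, at 406, and the membrane anchors Sdhc and Sdhd at 368 and 278. In complex III, Uqcrb was the lowest subunit in liver, heart and white fat (102, 208 and 54.4 CPM per kb), and the core protein gene Uqcrc1 the highest in heart at 619. Complex V was led by Atp5b, the catalytic beta subunit, with 2190 CPM per kb in heart, 655 in white fat and 265 in lung, while in liver Atp5g3, which encodes the ring subunit c, stood at 590 and Atp5b at 537, with overlapping ranges of 461 to 773 and 417 to 618 over libraries. In heart, 6 genes lay above 1000 CPM per kb: besides Atp5b, these were Cox4i1 with 1760, Atp5a1, the alpha subunit, with 1400, Atp5g3 with 1320, Cox6a2 with 1310 and Cox6c with 1140. Cox4i1, the general form of subunit 4, was the highest complex IV gene in all 4 tissues, with 642 in liver, 600 in white fat and 374 in lung. Cox7c was low in white fat and lung, with 17.7 and 15.6 CPM per kb, against 137 in liver and 258 in heart. This split follows the pairs of tissues deposited in different units, so tissue and processing cannot be told apart for it.

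**Figure D1:**
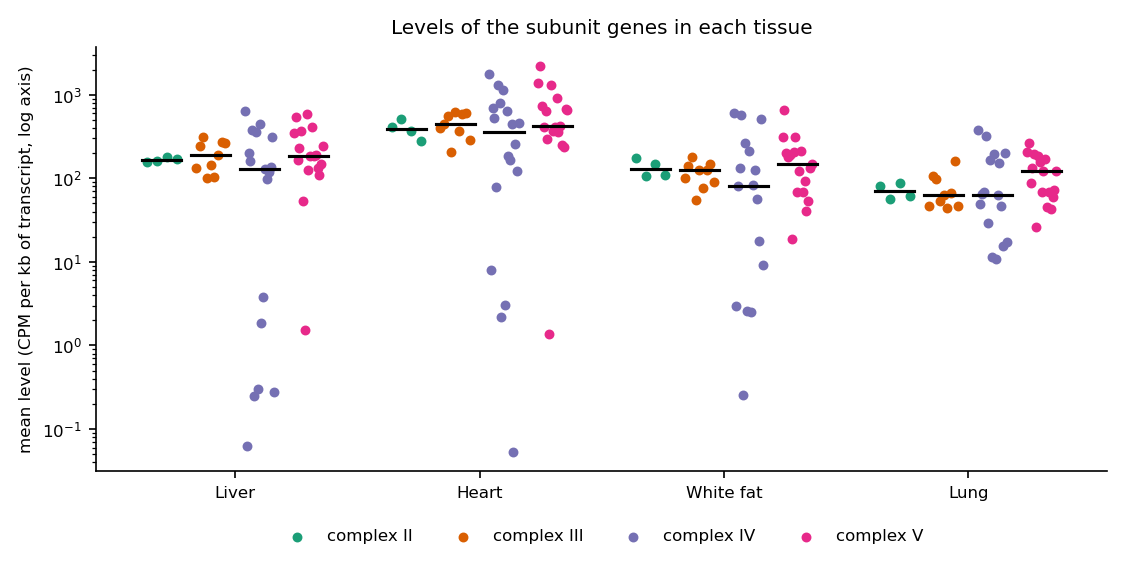
Mean level of each subunit gene in each tissue, in CPM per kb of transcript on a log axis, with 1 point per gene, colours for complexes II to V and a bar at the median of the complex. Complex II genes lie close together, while complex IV genes spread widest, from 0.0528 (Cox7b2) to 1760 (Cox4i1) in heart.

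Some members were near 0 in 1 tissue or more. Atp5g2, another gene for the ring subunit c, had 0.246 to 1.45 CPM in liver and 0.291 to 1.58 in heart but a mean of 135 CPM in white fat and 120 in lung. In the fat and lung tables its rows lay at chr17:5866329-5866976 and chr7:23646071-23646716 on GRCm39, with no introns, whereas GENCODE places the gene on chromosome 15, so its level is uncertain in all 4 tissues. The pseudogene Cox6c2, the low isoform Cox7b2 and Atp5g2 fell below the filter of a mean of 1 CPM in heart. In liver Atp5g2, Cox4i2, Cox6a2, Cox6b2, Cox6c2 and Cox8b did so, and in white fat Cox6a2 failed the count filter. This left 41 members tested in liver, 45 in heart, 45 in white fat and 46 in lung.

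The complex IV isoform pairs set heart apart from the other tissues. In heart the muscle form Cox6a2 stood at 755 to 1049 CPM and the general form Cox6a1 at 34.5 to 58.7 CPM, so Cox6a2 made up 94.4% ± 0.482 (SD, n = 20) of the pair per length. Cox7a1 made up 77.3% ± 2.15 of its pair with Cox7a2 and Cox8b 78.9% ± 2.0 of its pair with Cox8a. Counted without length, these shares were 95.4, 62.4 and 71.3%, since Cox7a1 and Cox8b are the shorter transcripts of their pairs. The lengths were those given for white fat and lung, so the shares per length in heart and liver depend on lengths from other tissues. In liver the median share was 0% for Cox6a2 and Cox8b and 2.61% for Cox7a1, and in white fat the means were 0.0466, 1.71 and 2.98%. The general forms thus made up nearly all of each pair in liver and white fat, and no heart library had a muscle form share as low as any library of another tissue.

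Within heart these shares overlapped between the 4 groups. The share of Cox6a2 was 94.3% ± 0.537 in sedentary vehicle mice (SD, n = 5), 94.4% ± 0.259 in trained vehicle mice, 94.4% ± 0.559 in sedentary knockout mice and 94.3% ± 0.654 in trained knockout mice. The share of Cox7a1 ran from 75.5 to 79.3% in sedentary vehicle mice and from 77.5 to 81.4% in trained knockout mice. Lung held more of 2 other minor forms than the other tissues did. Cox4i2, a form of subunit 4 known from lung, made up 11.8% ± 1.94 (SD, n = 12) of its pair with Cox4i1 in lung, 0.454% in heart, 0.487% in white fat and 0.00961% in liver. Cox6b2, known from testis, made up 6.56% of its pair with Cox6b1 in lung against at most 1.56% in any library of the other tissues.

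Lung also held the muscle forms. Cox7a1 made up 7.37 to 12.4% of its pair in sedentary vehicle lungs, 11.5 to 12.2% in sedentary knockout lungs, 14 to 21.5% in trained vehicle lungs and 17 to 22.3% in trained knockout lungs. Both trained groups lay above both sedentary groups. The other muscle forms did not show this. Cox8b made up 3.12 to 8.39% in sedentary vehicle, 4.78 to 12.4% in trained vehicle, 3.43 to 6.23% in sedentary knockout and 6.4 to 14.3% in trained knockout lungs, with overlap for training in vehicle mice and none in knockout mice. Cox6a2 made up 4.1 to 8.7, 5.88 to 16, 6.7 to 8.41 and 7.75 to 11.9% in the same order, with overlap in both. The lung table held 6 of the 7 cardiomyocyte markers, and none was at 0. They summed to between 264 and 595 CPM in sedentary vehicle lungs and 636 and 1814 in trained vehicle lungs. In knockout lungs the sums were 585 to 769 CPM in the sedentary and 989 to 1424 CPM in the trained group. The part of these markers in the isoform shares of lung was not tested. Cox6a2 of lung stood at 6.89, 8.76 and 20.1 CPM in sedentary vehicle mice and 13.6, 37.5 and 17.8 CPM after training. Its groups overlapped, with a log2 difference of 0.95 (SE 0.42, adjusted p = 0.365 by edgeR). With the cardiomyocyte markers as a covariate the difference was -0.245 (SE 0.356). In white fat, where the 4 of 7 cardiomyocyte markers in the table summed to 0.77 to 5.3 CPM, Cox6a2 stood at 0 to 0.406 CPM.

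**Figure D2:**
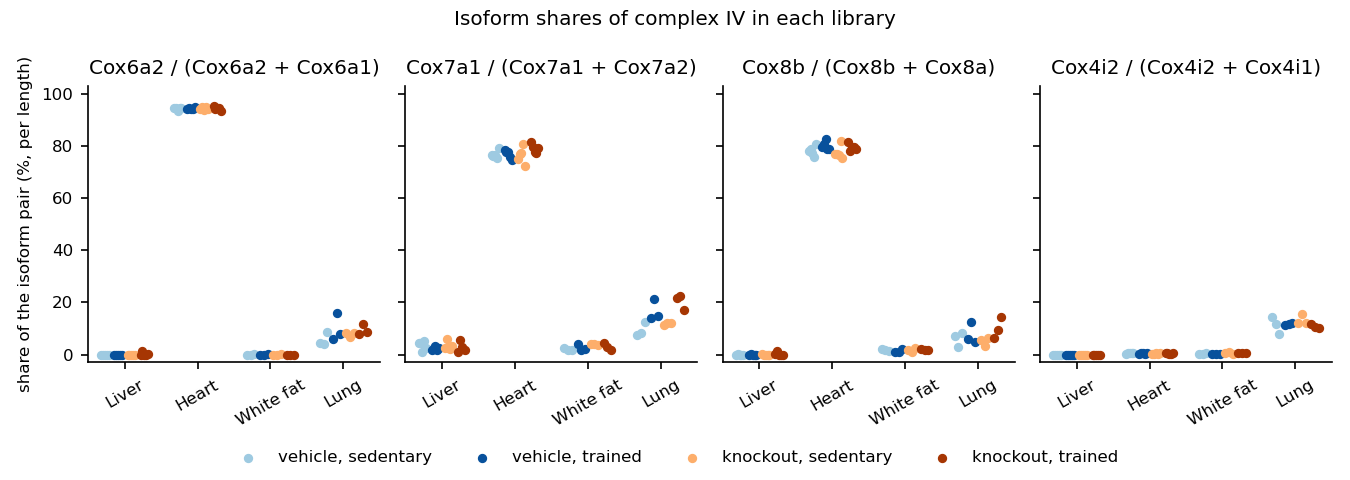
Share of the muscle or lung form in 4 isoform pairs of complex IV, in percent of the pair per kb of transcript, with 1 point per library and colours for the 4 groups. Cox6a2, Cox7a1 and Cox8b hold 72.4 to 95.2% of their pairs in heart libraries, and Cox4i2 reaches 7.75 to 15.6% in lung alone.

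In heart, subunit genes of complexes II to V were higher after training in vehicle mice. Of the 45 members tested, 22 were called higher at an adjusted p under 0.05 and 0 lower, by limma on all 13456 genes with Benjamini-Hochberg adjustment, against 4.72% of all genes called higher and 3.55% lower. The log2 changes were small, with a median of 0.173 over the members tested against -0.002 over all genes, and 43 of 45 were positive. At an unadjusted p under 0.05, 32 were higher, against 12.7% of all genes, and 0 lower. By complex, 1 of 4 was called in complex II, 5 of 9 in complex III, 7 of 16 in complex IV and 9 of 16 in complex V, with medians of 0.082, 0.209, 0.172 and 0.193. Complex I, the other entry to the chain, had 24 of 39 subunits called higher and a median of 0.211. Complex II had the lowest median of the 4, and the difference between complexes was not tested. Its genes have transcripts of 1079 to 2859 nt, all longer than the median member at 675.5 nt. Complex and transcript length therefore cannot be told apart for complex II.

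In complex II only Sdhb passed. It stood at 535.2, 552.3, 529.9, 502.5 and 525.7 CPM in sedentary vehicle hearts and at 654.2, 614.6, 558.8, 568.9 and 563.5 CPM in trained ones. Every trained heart lay above every sedentary one, with a log2 change of 0.16 (SE 0.05, adjusted p = 0.0359 by limma), and the call held in 5 of 10 fits that left out 1 library. With the length index described below as a covariate, the change of Sdhb was -0.036 (SE 0.061). Sdha, the catalytic subunit, had 1243, 1183, 1144, 1109 and 1107 CPM against 1164, 1129, 1064, 1069 and 1131 CPM after training, a log2 change of -0.06 that did not pass.

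In complex III the 3 genes with the smallest p encode small subunits around the catalytic core. Uqcrq had 410.7, 431.1, 416.8, 374.7 and 414.3 CPM in sedentary and 562.2, 491.2, 507.7, 484.5 and 491.2 CPM in trained vehicle hearts, a log2 change of 0.31 (SE 0.05, adjusted p = 0.00215 by limma). Uqcrh, the hinge protein that helps cytochrome c dock, had 314.6, 308.0, 321.5, 323.7 and 314.5 CPM against 401.0, 382.1, 356.3, 341.2 and 368.5 CPM, a change of 0.22 (SE 0.04, adjusted p = 0.0057). Uqcr11 had 225.6, 243.8, 226.6, 203.6 and 252.3 CPM against 317.4, 277.6, 286.5, 277.3 and 266.2 CPM, a change of 0.31 (SE 0.07, adjusted p = 0.0112). None of the 3 overlapped between the groups, and replicate 1 was the highest trained heart for each. With the length index as a covariate, the change of Uqcr11 was -0.029 (SE 0.09). The other complex III calls were Uqcr10 with 0.24 and Cyc1, cytochrome c1, with 0.15. The core protein gene Uqcrc2 moved little, with a log2 change of 0.03 and overlapping groups.

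In complex IV the general isoform Cox7a2 had the smallest p. It stood at 133.1, 139.6, 133.4, 134.5 and 133.6 CPM in sedentary vehicle hearts and at 166.6, 160.7, 157.8, 155.8 and 164.9 CPM in trained ones, a log2 change of 0.26 (SE 0.04, adjusted p = 0.00215 by limma). Cox6b1, which faces the intermembrane space, had 384.7, 357.9, 358.6, 346.8 and 363.0 CPM against 471.0, 433.2, 408.3, 411.4 and 408.5 CPM, a change of 0.23 (SE 0.05, adjusted p = 0.00804). Cox5b, a matrix-side subunit that binds zinc, had 284.7, 306.1, 280.6, 256.0 and 285.8 CPM against 387.6, 325.6, 331.1, 320.7 and 329.8 CPM, a change of 0.26 (SE 0.06, adjusted p = 0.0123). The groups of all 3 were separate. Cox8b (0.34), Cox4i1 (0.19), Cox5a (0.19) and Cox7a2l (0.17) were also called higher, the first 2 with groups that overlapped. Of the muscle forms, Cox7a1 had a log2 change of 0.26 with an adjusted p of 0.0634 and Cox6a2 one of 0.17 with 0.101 by limma, so that neither passed. Cox6c missed the threshold with 0.17 and an adjusted p of 0.0507.

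In complex V, Atp5g1, a further gene for the ring subunit c, had 235.8, 240.6, 219.0, 212.4 and 224.5 CPM in sedentary and 280.1, 270.4, 259.1, 266.0 and 252.4 CPM in trained vehicle hearts, a log2 change of 0.23 (SE 0.05, adjusted p = 0.0057 by limma). Atp5e, the epsilon subunit of the central stalk, had 252.2, 257.0, 249.8, 224.3 and 257.4 CPM against 361.1, 293.3, 327.6, 287.4 and 288.6 CPM, a change of 0.32 (SE 0.07, adjusted p = 0.00591). Atp5k, whose promoter is printed above, had 89.35, 100.6, 106.8, 106.0 and 128.5 CPM against 162.3, 146.7, 147.5, 125.5 and 129.6 CPM, the largest change of the called members at 0.42 (SE 0.11, adjusted p = 0.0171). Atp5g1 and Atp5e did not overlap between the groups, while Atp5k overlapped by its highest sedentary heart. The other complex V calls were Atp5md (0.25), Atp5d (0.21), Atp5j2 (0.21), Atp5h (0.20), Atp5g3 (0.20) and Atp5o (0.16). The catalytic genes Atp5b and Atp5a1, the most abundant of the complex, had log2 changes of 0.01 and 0.03, with Atp5b between 3920 and 4113 CPM without and between 3707 and 4341 CPM with training.

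Over all members, 18 of 45 had trained vehicle hearts all above the sedentary ones, against 3.62% of all genes, and 0 had them all below. The members together made up 2.48% ± 0.02969 of the library in sedentary vehicle hearts (SD, n = 5, range 2.444 to 2.52%) and 2.633% ± 0.05352 (2.558 to 2.696%) in trained ones. The libraries did not overlap in this share. The part of complex II among the members ran from 9.909 to 10.32% without and from 9.465 to 9.735% with training in vehicle mice, with no overlap. All complex II genes are longer than the median member, and the part of transcript length in this share was not tested.

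**Figure D3:**
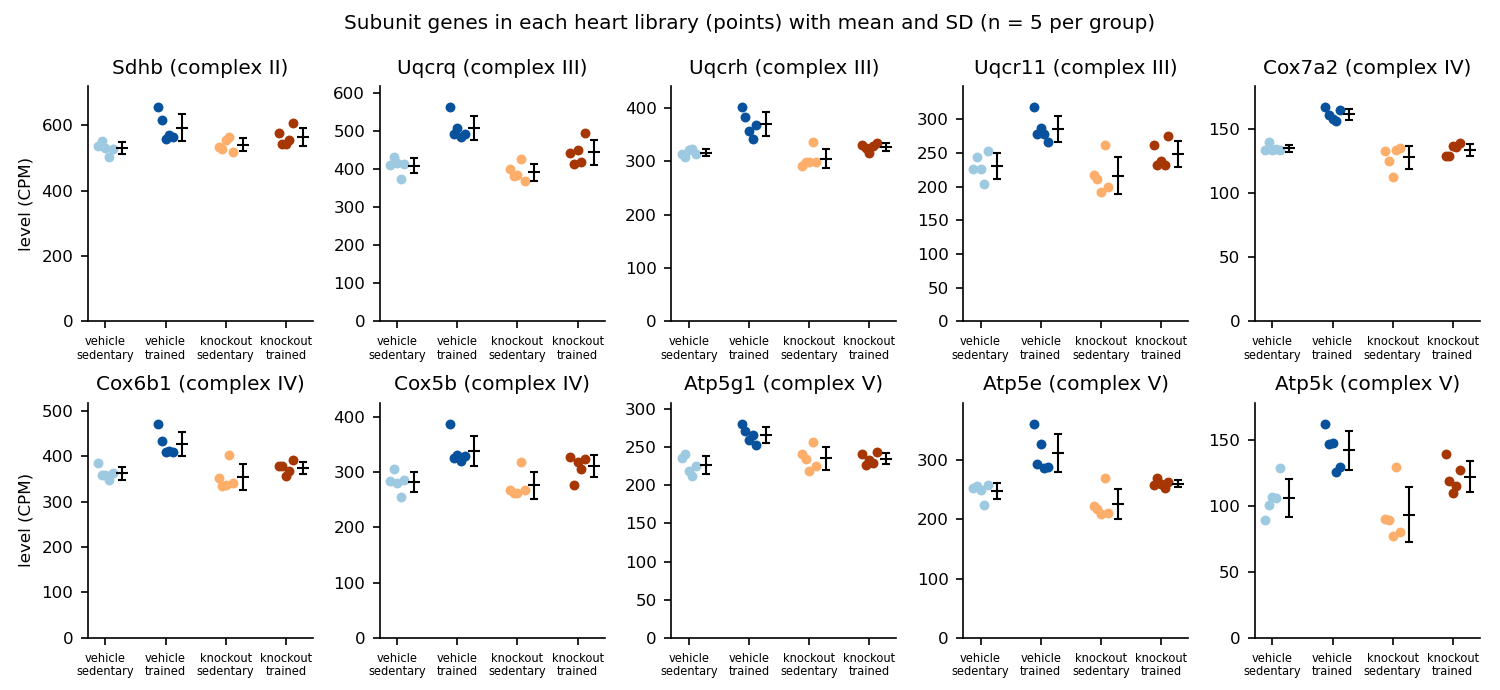
Level in CPM of the 10 named members in each heart library (points) for the 4 groups, with the mean and SD of each group (n = 5) and axes from 0. The trained vehicle hearts lie above the sedentary vehicle hearts for every gene shown except Atp5k, where 1 sedentary heart reaches 128.5 CPM.

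Transcript length, red cell markers and single libraries moved with this result. A length index was taken for each library as the mean log2 level of the 25% of genes with the longest transcripts minus that of the 25% with the shortest, relative to the tissue mean. It ran from 0.047 to 0.101 in the sedentary vehicle group and from -0.23 to -0.049 in the trained one, with no overlap, so that short transcripts stood higher relative to long ones after training. Over all genes with a length, Spearman's rho between log2 change and length was -0.541, and over the 45 members -0.628. Genes of the members' length range, 320 to 2859 nt, were called higher in 8.4% of 5771 cases and had a median of 0.066. Among members under the median length of 675.5 nt, 11 of 21 were called with a median of 0.209, and among the longer ones 11 of 24 with a median of 0.113. With the length index as a covariate 0 members and 0 of all genes were called by limma, and the members' median was 0.003 with 25 positive. Length index and training group cannot be told apart in these hearts.

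The sum of the 5 red cell markers, none of them at 0, ranged over 1452 to 2013 CPM without training and 2255 to 3555 CPM with it in vehicle mice, and their part in the result was not tested. Cardiomyocyte markers overlapped, with 36760 to 44110 CPM and 39480 to 45000 CPM. Replicate 1 of the trained vehicle hearts had both the lowest length index, -0.23, and the highest member levels, and without it 8 members were called. Without replicate 2 of that group 14 were called, without sedentary vehicle replicate 4 the number was 13, and without the 4 heart libraries that stood apart it was 6, all higher. Uqcrq, Uqcrh, Uqcr11, Cox7a2, Cox6b1, Cox5b, Atp5g1 and Atp5e kept their calls in each of 10 fits that left out 1 library, and Atp5k in 9.

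**Figure D4:**
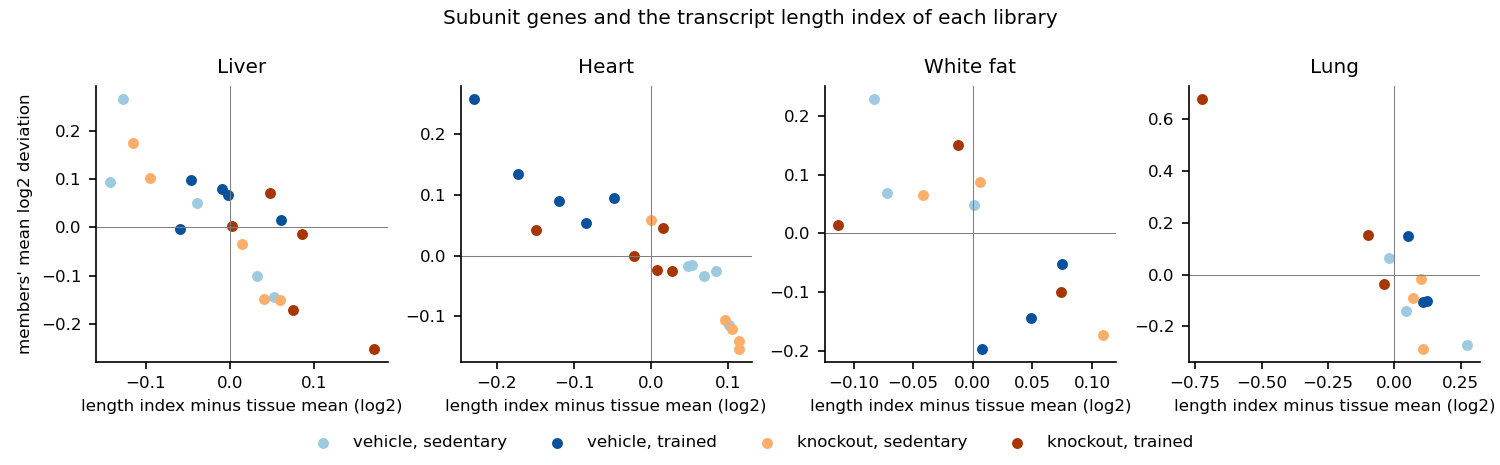
Mean log2 deviation from the tissue mean of members averaging at least 1 CPM (vertical axis) against each library's length index. The index is shown minus its tissue mean (horizontal axis, log2), with 1 point per library, colours for the 4 groups and separate scales for each tissue. Of the members tested, this leaves out Cox7a1 in white fat, at a mean of 0.925 CPM. In heart the 5 trained vehicle libraries lie between -0.23 and -0.049 on the horizontal axis and all above 0 on the vertical one, and in lung replicate 3 of the trained knockout group lies alone at -0.723 and 0.681.

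In knockout hearts the same genes leaned upward with training, but none passed. The call count was 0 of 45, against 0.0223% of all genes called higher and 0% lower by limma, with 15 members at an unadjusted p under 0.05, all higher, against 6.01% of all genes. The members' median was 0.085 and 39 of 45 were positive. Medians by complex were 0.003 for complex II, 0.092 for complex III, 0.12 for complex IV and 0.068 for complex V, and all 16 complex IV genes were positive. The smallest p values belonged to Atp5k (0.40, SE 0.11, adjusted p = 0.155 by limma), Uqcr10 (0.22, adjusted p = 0.184), Uqcrq (0.18, adjusted p = 0.184) and Cox7c (0.25, adjusted p = 0.188). Atp5k stood at 90.22, 89.54, 77.11, 129.8 and 80.7 CPM in sedentary and 139.7, 119.0, 110.0, 115.4 and 127.2 CPM in trained knockout hearts. Its groups overlapped through replicate 4 of the sedentary group, and without that library 9 members were called higher. The length index was between -0.0 and 0.113 in sedentary and between -0.149 and 0.027 in trained knockout hearts, and rho with length over the members was -0.829. The 3 macrophage markers had sums between 34.7 and 40.29 CPM in the sedentary and between 40.31 and 45.4 CPM in the trained knockout group, with no overlap, and their part was not tested.

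The direct test of the difference in training effect between knockout and vehicle hearts called 0 members by limma, against 0% of all genes, with 4 at an unadjusted p under 0.05, all lower, against 4.08% of all genes. The median difference was -0.08 and 39 of 45 were negative. Atp5g1 had the smallest p, with a difference of -0.23 (SE 0.06, adjusted p = 0.524 by limma). It stood at 241.0, 234.6, 218.5, 257.0 and 225.3 CPM in sedentary and 241.2, 226.7, 233.4, 229.0 and 242.7 CPM in trained knockout hearts with overlap. Cox7a2 came next at -0.19 (adjusted p = 0.528). The larger number of calls in vehicle hearts therefore does not show a difference between vehicle and knockout mice.

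Knockout hearts of sedentary mice had 0 members called, against 0% of all genes by limma, with 3 at an unadjusted p under 0.05, all lower, against 3.32% of all genes. The median was -0.041, and all 16 complex IV genes were negative, from -0.301 for Cox6b2 to -0.027. Atp5j2, subunit f of the ATP synthase, had -0.13 (adjusted p = 0.647 by limma), Atp5mpl -0.18 (adjusted p = 0.708) and Atp5e -0.14 (adjusted p = 0.746). The members made up 2.225 to 2.6% of sedentary knockout libraries, a range wider than in any other heart group, with replicate 4 the highest for several genes. Red cell markers were 2351 to 3295 CPM in these hearts, above the sedentary vehicle hearts given above, and their part was not tested.

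Among trained mice, 1 member, Cox7a2, was lower in knockout than in vehicle hearts, against 0.357% of all genes called lower and 0.163% higher by limma. It stood at 128.9, 128.5, 136.3, 135.5 and 138.6 CPM in trained knockout hearts, below all 5 trained vehicle hearts given above, a log2 difference of -0.27 (SE 0.04, adjusted p = 0.0111). The call held in each of 10 fits that left out 1 library, and it was lost with the groups of the comparison fitted alone, with an adjusted p of 0.0521, and with the length index, with 0.281. In sedentary knockout hearts the gene stood at 132.5, 124.7, 112.8, 133.5 and 134.8 CPM, which overlapped the trained knockout hearts, with 2 of the 5 below all of those. Over all 45 tested, Cox7a2 included, 42 were negative with a median of -0.122, 21 had an unadjusted p under 0.05 and 10 had groups that did not overlap, all lower, against 8.19 and 1.8% of all genes. Atp5l, subunit g of the ATP synthase, had -0.26 (adjusted p = 0.0609), Uqcrh -0.18 (adjusted p = 0.0669) and Atp5g1 -0.18 (adjusted p = 0.072). Without trained knockout replicate 5, 7 members were called, and without trained vehicle replicate 5, 4 were, all lower. This comparison shares its trained vehicle hearts with the training comparison, so the 2 results are not independent. Macrophage markers were 40.3 to 45.4 CPM in trained knockout and 33.3 to 39.0 CPM in trained vehicle hearts, and their part was not tested.

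In liver, no subunit gene passed the test for training in vehicle mice. The count was 0 of 41, against 0% of all genes by limma, with 1 member higher and 1 lower at an unadjusted p under 0.05 (3.21 and 3.7% of all genes), and 21 members positive and a median of 0.007. Atp5l had the smallest p, with 96.25, 102.5, 125.9, 116.7 and 112.4 CPM in sedentary and 90.8, 94.55, 91.53, 81.19 and 83.49 CPM in trained vehicle livers. Every trained liver lay below every sedentary one, as in 0.671% of all genes, with a log2 change of -0.32 (SE 0.09, adjusted p = 0.368 by limma). Atp5k moved the other way with 0.49 (adjusted p = 0.498) and overlapping groups. In knockout mice training called 0 members, against 0% of all genes higher and 0.0234% lower, and 2 higher and 7 lower at an unadjusted p under 0.05 (6.42 and 5.34% of all genes). The median was -0.074, and Uqcr10 (-0.29), Atp5e (-0.36), Atp5k (-0.45) and Cox4i1 (-0.26) had adjusted p values of 0.295 to 0.338 by limma. The brown adipocyte list was Ucp1, Cidea, Cpt1b, Elovl3, Ppargc1a and Dio2, and the liver table held 4 of these 6. Their sum was 41.5 to 64.4 CPM in trained and 67.4 to 86.1 CPM in sedentary knockout livers. In vehicle livers it was 47.1 to 147 CPM and 62.8 to 120 CPM in the same order, with overlap. The cells that these transcripts came from and their part in the result were not tested. The knockout in sedentary mice called 0 members against 0% of all genes, with 1 lower at an unadjusted p under 0.05 (2.68% of all genes), a median of -0.047 and a smallest adjusted p of 0.995.

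Trained knockout livers had 2 members lower than trained vehicle livers, against 1.08% of all genes called lower and 1.55% higher by limma. Uqcr10, a small complex III subunit, stood at 123.4, 116.8, 132.3, 126.4 and 123.1 CPM in trained vehicle livers and at 94.67, 76.33, 94.27, 101.1 and 87.52 CPM in trained knockout livers. The groups did not overlap, with a log2 difference of -0.46 (SE 0.10, adjusted p = 0.0323). In sedentary mice it had 98.13, 121.5, 112.6, 97.43 and 133.3 CPM with vehicle and 108.1, 127.9, 125.7, 105.2 and 92.04 CPM with the knockout, so that sedentary livers of both kinds spread across the 2 trained groups.

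Atp5k was the other. It stood at 75.49, 70.77, 77.3, 73.09 and 67.46 CPM in trained vehicle livers and at 49.5, 37.17, 50.2, 51.63 and 38.83 CPM in trained knockout livers, a log2 difference of -0.68 (SE 0.16, adjusted p = 0.0349 by limma). The trained groups were each narrow and well apart, while the sedentary groups were wide, with 37.63, 51.51, 53.92, 44.16 and 78.34 CPM with vehicle and 60.7, 80.79, 76.42, 46.65 and 50.98 CPM with the knockout. Both calls held in 3 of 10 fits that left out 1 library. Without trained knockout replicate 2, the library with skeletal muscle markers, the differences were -0.395 for Uqcr10 and -0.612 for Atp5k, with adjusted p values of 0.0535 and 0.066. With the length index as a covariate the difference was -0.288 for Uqcr10 and -0.397 for Atp5k, with adjusted p values of 0.0993 and 0.11 by limma.

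Over all 41 liver members tested, these 2 included, 28 were negative and the median was -0.11 against -0.009 for all genes. By complex the medians were 0.042 for complex II, -0.109 for complex III, -0.174 for complex IV and -0.132 for complex V. At an unadjusted p under 0.05, 12 were lower and 1 higher, against 10.2 and 11.7% of all genes. Groups that did not overlap were found in 10 members with knockout lower, against 2.89% of all genes. With knockout higher they were found in 1 member, against 476 of 12817 genes. Complex I had 1 of 39 called lower. The members under the median length had a median of -0.261 and the longer ones -0.028, with rho of 0.601 over the members and 0.157 over all genes with a length. All complex II genes were among the longer ones, so complex and length cannot be told apart for them. Endothelial markers were 62.9 to 71.3 CPM in trained knockout and 52.1 to 61.0 CPM in trained vehicle livers, and their part was not tested. The difference in training effect called 0 members, against 0.0078% of all genes called higher and 0% lower by limma, with 2 higher and 6 lower at an unadjusted p under 0.05 (6.13 and 4.1% of all genes). Atp5k had the smallest p there, with -0.94 (SE 0.23, adjusted p = 0.218), and 4 of 4 complex II genes were positive with a median of 0.134.

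**Figure D5:**
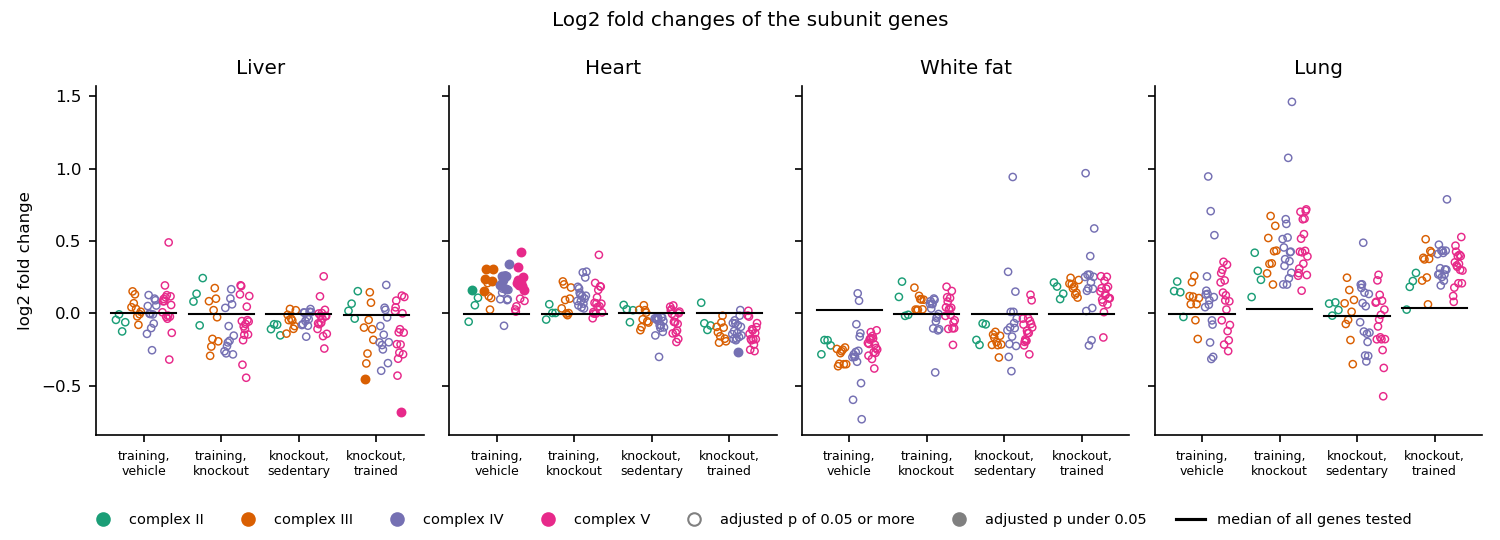
Log2 fold change of each member tested in 4 comparisons of each tissue, with 1 point per gene, colours for complexes II to V, filled points for an adjusted p under 0.05 and a black line at the median of all genes tested. Filled points appear in heart after training in vehicle mice (22), in trained knockout heart (1) and in trained knockout liver (2), while in white fat and lung most open points lie on 1 side of the line in some comparisons.

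In white fat, subunit genes of all 4 complexes were lower in trained than in sedentary vehicle mice, but none passed across the genome. edgeR's quasi-likelihood test called 0 of 45 members and 0% of all 15448 genes, while 22 members had an unadjusted p under 0.05, all lower, against 7.79% of all genes. The median log2 change was -0.251 over the members tested and 0.026 over all genes, and 43 of 45 were negative. In 33 members every trained library lay below every sedentary one, against 12% of all genes. All 9 complex III genes were among them, with 2 of 4 in complex II, 9 of 15 in complex IV and 13 of 17 in complex V. Medians were -0.204, -0.275, -0.284 and -0.211 for complexes II to V. Complex I had 37 of 38 negative and a median of -0.247.

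Cox8a, the general form of subunit 8, had the smallest p. It stood at 360.3, 312.6 and 317.1 CPM in sedentary and 227.3, 241.8 and 239.4 CPM in trained vehicle fat, a log2 change of -0.48 (SE 0.11, adjusted p = 0.127 by edgeR). Uqcr11 had 93.8, 88.37 and 80.44 CPM against 67.09, 70.08 and 68.98 CPM, a change of -0.35 (adjusted p = 0.152). Uqcr10 had 76.1, 72.4 and 62.85 CPM against 54.0, 55.2 and 54.81 CPM, a change of -0.37 (adjusted p = 0.169). For these genes the trained libraries were close to each other and clear of the sedentary ones. Uqcrc1, a core protein, had 240.5, 209.2 and 228.9 CPM against 185.3, 183.9 and 196.7 CPM, a change of -0.26 (adjusted p = 0.179), and likewise did not overlap. Long and short members moved alike here, with a median of -0.268 below and -0.248 above the median length and rho of 0.141 over the members. Over all genes rho was 0.172. The length index ran from -0.083 to 0.001 in sedentary and from 0.008 to 0.075 in trained vehicle fat. These ranges did not overlap, so length index and training group cannot be told apart in vehicle fat.

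Adipocyte and macrophage markers moved with these genes. The 5 white adipocyte markers, all of them detected in each library, had sums between 15830 and 18730 CPM in the sedentary vehicle group and between 10920 and 12020 CPM in the trained one. The 3 macrophage markers had sums of 430 to 671 CPM and 854 to 1027 CPM. Neither list overlapped between the groups, one falling with the subunit genes and the other going the opposite way, and their part in the result was not tested. In trained knockout fat the adipocyte sum was 13520 to 17210 CPM and the macrophage sum 298 to 555 CPM. The members' median was -0.152 with the length index as a covariate and -0.208 without the libraries that stood apart, and it ran from -0.196 to -0.328 over fits that left out 1 library.

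In knockout fat training called no member, and complex III alone had all its genes on 1 side, with 9 of 9 positive and a median of 0.094. The count was 0 of 45, against 0% of all genes by edgeR, with 0 at an unadjusted p under 0.05, a median of 0.028 and 27 positive. Cox8a had 292.2, 247.3 and 307.1 CPM in sedentary and 241.8, 286.9 and 315.0 CPM in trained knockout fat, with overlap. The test of the difference in training effect called 0 members and 0% of all genes, with 16 members at an unadjusted p under 0.05, all higher, against 7.42% of all genes. The median difference was 0.3 and 43 of 45 were positive, with 9 of 9 in complex III (median 0.383) and 17 of 17 in complex V (median 0.202). Cox8a and Uqcrc1 had the smallest p, with 0.48 (SE 0.16) and 0.38 (SE 0.13) and an adjusted p of 0.169 for each by edgeR.

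Among sedentary mice, fat of knockout animals had 0 members called, against 0.427% of all genes higher and 0.129% lower by edgeR. The median was -0.136 and 38 of 45 were negative, with 1 higher and 4 lower at an unadjusted p under 0.05 (10.3 and 7.6% of all genes). Uqcrfs1, the Rieske iron-sulfur protein of complex III, had -0.31 (adjusted p = 0.224) and Cox7a1 0.94 (adjusted p = 0.239), from 0.873, 0.549 and 0.609 CPM with vehicle to 1.46, 1.12 and 1.31 CPM with the knockout. Among trained mice the sign was the other way. The count was 0 of 45, against 0.842% of all genes called higher and 3.59% lower, with a median of 0.17 and 42 positive, and 5 higher and 1 lower at an unadjusted p under 0.05 (10.7 and 14.7% of all genes). Cox4i2 had 0.97 (adjusted p = 0.121) and Cox6a1 0.27 (adjusted p = 0.151). Besides the adipocyte and macrophage markers given above, 3 lists separated these groups: endothelial markers with 371 to 571 CPM in knockout and 238 to 361 CPM in vehicle fat, T cell markers with 4.74 to 7.36 and 7.45 to 19.7 CPM, and brown adipocyte markers with 15 to 18.5 and 18.9 to 20.2 CPM. Their part was not tested. The trained vehicle libraries serve both the training and this comparison. Members made up 0.7281 to 0.8192% of the library in sedentary vehicle fat, 0.6046 to 0.6901% in trained vehicle fat, 0.6358 to 0.7376% in sedentary knockout fat and 0.6867 to 0.7866% in trained knockout fat.

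In lung, every member stood higher in trained than in sedentary knockout mice, but the result leaned on 1 library. The call count was 0 of 46, against 0% of 16151 genes by edgeR, with 29 members at an unadjusted p under 0.05, all higher, against 9.05% of all genes. The median log2 change was 0.422, and the medians of complexes II to V were 0.263, 0.429, 0.424 and 0.426. In 22 members the groups did not overlap, against 11.9% of all genes and 19.7% of those in the members' length range.

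Atp5h, subunit d of the peripheral stalk, had 36.16, 28.16 and 31.15 CPM in sedentary and 42.37, 44.98 and 62.5 CPM in trained knockout lungs, a log2 change of 0.65 (SE 0.17, adjusted p = 0.24 by edgeR). Atp5mpl, a small membrane subunit, had 20.13, 15.94 and 20.93 CPM against 24.44, 29.03 and 40.23 CPM, a change of 0.72. Cox6b1 had 69.82, 59.78 and 65.86 CPM against 80.48, 84.86 and 134.5 CPM, a change of 0.62. The groups were separate for these genes, and replicate 3 of the trained knockout lungs was the highest each time. Uqcrfs1 had 85.58, 76.12 and 79.2 CPM against 103.2, 100.5 and 120.6 CPM, a change of 0.43, and all 4 genes shared the adjusted p of 0.24.

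Replicate 3 of the trained knockout lungs had 0.5999% of its reads in the members, against 0.3524 to 0.4669% in the other 11 lungs, and a length index of -0.723. Without it the members' median was 0.179 and 36 of 46 were positive. With the length index as a covariate the median was 0.06 with 29 positive, and rho between log2 change and length was -0.567 over all genes and -0.638 over the members. The cardiomyocyte markers were also higher in trained knockout lungs, as given above, as were white adipocyte markers, with 81.5 to 177 CPM against 13.4 to 70.7 CPM. Endothelial markers were lower, with 1290 to 1610 CPM against 1746 to 1991 CPM. With the cardiomyocyte markers as a covariate the median was 0.341 with 45 positive, and the part of the white adipocyte and endothelial markers was not tested.

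The same library weighed on the comparison of knockout with vehicle among trained lungs. There 0 of 46 members were called, against 0% of all genes by edgeR, with 14 at an unadjusted p under 0.05, all higher, against 8.38% of all genes. The median was 0.317 with 46 positive, and without that library it was 0.041 with 27 positive. The smallest adjusted p was 0.282, shared by Uqcrfs1 (0.38), Atp5mpl (0.53), Uqcrb (0.51) and Cox6b1 (0.43). Endothelial markers, 1774 to 1834 CPM in trained vehicle lungs, were lower in the knockout, and T cell markers were higher, with 14.5 to 19.2 against 8.23 to 11.95 CPM. Their part was not tested. Training in vehicle lungs called 0 members, against 0.0186% of all genes higher and 0.186% lower, with 3 at an unadjusted p under 0.05, all higher (5.45% of all genes), a median of 0.109 and 32 positive. With the cardiomyocyte markers as a covariate the median was -0.07 and 14 were positive. Red cell markers (9896 to 13800 against 6326 to 6886 CPM) and endothelial markers (1774 to 1834 against 1126 to 1686 CPM) were also higher in trained vehicle lungs and B cell markers lower (24.2 to 60 against 70.4 to 202 CPM), and their part was not tested. Atp5b (0.28, adjusted p = 0.349 by edgeR) and Uqcrc1 (0.26, adjusted p = 0.359) led, followed by Cox6a2, given above. The knockout in sedentary lungs called 0 against 0% of all genes, with 1 lower at an unadjusted p under 0.05 (7.36% of all genes), 23 of 46 positive and a median of 0.0. Atp5md, a small subunit that helps dimers of the ATP synthase form, had the smallest p, with -0.57 (SE 0.24, adjusted p = 0.321). Endothelial markers were higher in these knockout lungs, with 1746 to 1991 against 1126 to 1686 CPM, and their part was not tested. The difference in training effect called 0 against 0% of all genes, with 10 at an unadjusted p under 0.05, all higher (8.13% of all genes), a median of 0.323 and 43 positive, led by Atp5mpl with 0.90 (SE 0.27, adjusted p = 0.217).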

How the data were processed

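RNA was extracted with Trizol and RNeasy kits and sequenced from an Illumina library, per the labels' protocols. The liver and heart values are a signal as the authors deposited them, estimated reads divided by 1 factor per library. The labels call all tables CPM, but the columns summed to 14840727 to 18537114 in liver and heart. The size of 1 read was fitted to the low values above 0 of each library. Of those same values, 81.0 to 83.8% were whole multiples of 1 read within 0.02 reads. The white fat and lung values are expected counts per transcript, as deposited by the authors, summed per symbol and rounded. STAR 2.7.8a, Partek, mm10 and GRCm39 come from the submitters' processing notes, with no roles given; coordinates of the fat and lung tables are GRCm39. Libraries were grouped by their labels.

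Liver and heart were rescaled by 1 factor per tissue so that the mean library summed to 1000000. Genes below a mean of 1 were dropped. The trend method of limma 3.58.1 was applied to log2(value + 1), so fold changes of low genes are understated. White fat and lung were fitted with edgeR 4.0.16 (quasi-likelihood, TMM, filterByExpr), in R 4.3.3. Each fit held all 4 groups of a tissue and all genes, with Benjamini-Hochberg adjustment within a comparison and a threshold of 0.05. Named are members called (the 3 with the smallest p per complex where more than 12 were), otherwise the 4 with the smallest p, isoform pairs, and the highest and lowest members. Alternatives were another pseudocount, no filter, edgeR on estimated reads, quantile or RLE scaling, DESeq2 1.42.0, a replicate block, 2 groups alone, a length covariate and leaving out libraries. Scripts were tested on simulated data. Members and lists were chosen with earlier results of these data known.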

Additional observations from a re-analysis of the deposited data

Results flagged for a closer look

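Heart and liver were examined in 92 sets, each of 1 gene or 1 total in 1 group. The sets share libraries, so they are not independent and the count below was not set against chance. In 9 of them, 1 library lay far from the other 4 of its group. Of these, 6 were replicate 4 of the sedentary knockout hearts lying above its group: 271 CPM for Atp5e, 130 CPM for Atp5k, 319 CPM for Cox5b, 402 CPM for Cox6b1, 337 CPM for Uqcrh and 5580 CPM for the complex IV total, against medians of 218, 89.5, 267, 340, 299 and 4830 CPM. In sedentary vehicle hearts, 1 library was low for Atp5e at 224 CPM (median 252) and 1 was high for Cox7a2 at 140 CPM (median 134). In trained vehicle hearts, replicate 1 was high for Cox5b at 388 CPM (median 330).

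A pseudogene outside the members carried reads: Atp5pb-ps had a median of 27.5 CPM in liver (19 to 35.5) and 69.7 CPM in heart (61.2 to 82.9), where its parent Atp5pb had medians of 277 and 739 CPM. Reads of the 2 genes could be split between them, so Atp5pb is uncertain by that amount.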

How the results depend on the processing

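In heart after training in vehicle mice, 22 members were called with another pseudocount, with edgeR on estimated reads and with the replicate block, 20 with quantile scaling, 19 with the 2 groups alone, 17 without a filter and 23 with Ucp1 as a covariate, against 0 with the length covariate and 6 without the libraries that stood apart. Leaving out 1 library gave 8 to 23. In trained knockout heart the count was 2 with quantile scaling, 0 with the 2 groups alone, 0 with the length covariate and 1 to 7 leaving out 1 library, and for training in knockout heart it was 0 to 9. In trained knockout liver it was 0 without a filter, 5 with quantile scaling, 6 with the 2 groups alone, 0 with the length covariate, 0 without the libraries that stood apart and 0 to 3 leaving out 1 library. The liver difference in training effect gave 0 to 1, and liver training in vehicle mice gave 1 with the length covariate. DESeq2 called 3 members lower for training in vehicle fat, 2 for the fat difference in training effect and 2 higher for training in knockout lung, and the 2 groups alone called 1 in vehicle fat. The other 15 comparisons gave 0 to 0 leaving out 1 library. The cause of these changes was not tested. The length covariate gave -0.036 (SE 0.061) for Sdhb and -0.029 (SE 0.09) for Uqcr11 in heart after training in vehicle mice. It gave -0.01 (SE 0.101) for Cox6b1 in trained knockout lung. The cardiomyocyte covariate gave -0.245 (SE 0.356) for Cox6a2 in lung after training in vehicle mice. Each of these changed sign and was smaller in size than its SE. The cardiomyocyte and Ucp1 covariates and the fits without libraries that stood apart were chosen after seeing the data.

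Same-numbered libraries of different groups did not all deviate together: correlations ran from -0.496 to 0.381, with 10 of 30 pairs over 0.1 in heart, 10 of 30 in liver, 6 of 18 in fat and 9 of 18 in lung, where the median was 0.0907 against -0.0774 for other numbers. With the replicate block the counts were 22 in heart after training in vehicle mice, 1 in trained knockout heart, 2 in trained knockout liver and 0 elsewhere. A library correlated best with its own number in 7 of 20 hearts, 0 of 20 livers, 4 of 12 fat and 4 of 12 lung libraries.

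Among shares and totals recomputed with another setting, 64 stayed within 1 SD and 32 moved, of which all but the complex V total in heart were isoform shares taken without transcript length. Members near the filter, such as Cox6a2 in fat at 0 to 0.406 CPM, are limited by depth.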

Other observations

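Assembly factors and regulators of the same complexes were read from lists chosen with earlier results known. In heart after training in vehicle mice, 4 of 24 complex IV assembly factors were called higher by limma, against 4.72% of all genes, with a list median of 0.128: Cox19 rose by 0.33 on the log2 scale (SE 0.06, adjusted p = 0.00215), the copper chaperone Cox17 by 0.28 (adjusted p = 0.0207), Cox14 by 0.22 (adjusted p = 0.00896) and Coa3 by 0.20 (adjusted p = 0.0484). Of 6 complex III assembly factors, Uqcc3 was called, from 18.4 to 22.6 CPM (0.28, adjusted p = 0.00804), with a list median of 0.04. None of 4 complex II or 4 complex V assembly factors, 10 carriers or 13 tricarboxylic acid cycle genes was called, with medians of 0.176, 0.076, 0.066 and -0.001 against -0.002 for all genes. Among 16 regulators of mitochondrial biogenesis, Ppara, a receptor that drives fatty acid oxidation genes, fell by 0.43 on the log2 scale, from 32.2 to 23.6 CPM (SE 0.08, adjusted p = 0.00456), against 3.55% of all genes called lower, and the list median was -0.042. With the length index as a covariate, 0 of all genes were called in this comparison.

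In trained knockout liver, Uqcc2, a complex III assembly factor, had -0.41 (SE 0.11, adjusted p = 0.048 by limma) and Cmc2, of the complex IV list, -0.44 (SE 0.12, adjusted p = 0.0442), both called lower than in trained vehicle liver, against 1.08% of all genes. In sedentary knockout fat, Fmc1, an assembly factor of complex V, stood at 6.96 CPM against 11.8 CPM with vehicle (-0.76, SE 0.14, adjusted p = 0.0473 by edgeR), against 0.129% of all genes called lower. In fat after training in vehicle mice, 0 of 13 tricarboxylic acid cycle genes were called, and 13 of 13 were negative with a median of -0.235.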
